A study of Mus musculus with 12 samples.

Results

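The genes described here are 31 mouse genes of the unfolded protein response and the integrated stress response, out of 43453 genes in the deposited count matrix. They were chosen by name: 4 stress sensors and factors (Ern1, Eif2ak3, Atf6, Xbp1), 10 ER chaperones and cofactors (Hspa5, Hsp90b1, Hyou1, Dnajb9, Dnajc3, Sdf2l1, Creld2, Manf, Calr, Canx), 3 disulfide isomerases (Pdia3, Pdia4, Pdia6), 4 genes of ER-associated degradation (Herpud1, Edem1, Sel1l, Syvn1), 6 genes of the ATF4 and CHOP axis (Atf4, Ddit3, Trib3, Chac1, Ppp1r15a, Asns) and 4 enzymes of serine and one-carbon metabolism (Psat1, Phgdh, Shmt2, Mthfd2). For a gene with several transcript rows, the row with the highest total was taken. All 31 passed the filter on low counts in every comparison, and the weakest of them, Chac1, had between 5 and 260 counts per library. Levels are given in CPM, the count of a gene relative to all counts of its library after TMM scaling.

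The RNA came from bone marrow-derived macrophages (BMDMs) of C57BL/6 mice. BMDMs are primary cells that were grown out of marrow with 50 ng/mL M-CSF over 7 days. The tlr4f/f cells carry loxP-flanked alleles of the LPS receptor gene and no Cre, and the tlr4f/f-lysM-cre cells also carry a Cre that the lysozyme M promoter drives in myeloid cells, so that deletion depends on the activity of that promoter. LPS, the bacterial ligand of TLR4, was given at 1 µg/mL for 6 h or left out, which makes 4 groups of 3 libraries with between 33577440 and 56445989 counts each over genes. The replicates are described as independent, but no source used here says whether the 3 libraries of a group came from separate mice or cultures, so p-values measure only the spread between these libraries, which may be technical.

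In the ER, chaperones such as BiP (Hspa5) fold secreted and membrane proteins, and 3 membrane sensors watch their load: IRE1 (Ern1) splices Xbp1 mRNA, ATF6 is cut to release a transcription factor, and PERK (Eif2ak3) phosphorylates eIF2 alpha. XBP1 and ATF6 raise chaperones and the machinery that removes misfolded proteins, while phosphorylated eIF2 alpha slows translation in general and raises translation of ATF4, which drives CHOP (Ddit3), amino acid synthesis and transport. In macrophages, Toll-like receptor signalling is known to engage IRE1 and XBP1 and to restrain CHOP.

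The headings of 2 of the 4 groups go against the genes that the alleles and the ligand should set, so these groups are given letters. Group Q is headed LPS- tlr4f/f-lysM-cre and group R is headed LPS+ tlr4f/f. Tlr4, the targeted gene, had 77.0, 146 and 121 CPM in LPS- tlr4f/f and 117, 94.7 and 116 CPM in Q, against 24.5 to 31.2 CPM in R and 27.4, 24.4 and 24.7 CPM in LPS+ tlr4f/f-lysM-cre. Lyz2, the gene into which the Cre was placed, had between 5953 and 23331 CPM in LPS- tlr4f/f and Q and between 10.4 and 75.3 CPM in R and LPS+ tlr4f/f-lysM-cre. Il1b, a cytokine gene that LPS induces, had between 0.0750 and 6.95 CPM in LPS- tlr4f/f, 8224, 1633 and 2812 CPM in Q, between 2.69 and 3.61 CPM in R, and between 2488 and 2671 CPM in LPS+ tlr4f/f-lysM-cre. By these 3 genes Q looks like LPS-treated tlr4f/f and R like unstimulated tlr4f/f-lysM-cre, which is the exchange of both headings. Each comparison below is one set of libraries with 2 readings, as headed and exchanged.

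The first reading of Q minus LPS- tlr4f/f is the effect of genotype without LPS, and with the headings exchanged it is the LPS response of tlr4f/f. LPS+ tlr4f/f-lysM-cre minus R is the effect of genotype under LPS as headed, and the LPS response of tlr4f/f-lysM-cre with the headings exchanged. R minus LPS- tlr4f/f is the LPS response of tlr4f/f as headed, and exchanged the effect of genotype without LPS. LPS+ tlr4f/f-lysM-cre minus Q is the LPS response of tlr4f/f-lysM-cre as headed, and exchanged the effect of genotype under LPS. The interaction of genotype and LPS is the same quantity in both readings.

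The 2 comparisons that share no library are described first. In Q against LPS- tlr4f/f, the chaperone gene Hspa5, the degradation gene Syvn1, Atf4 and Ppp1r15a were higher and the sensor genes Eif2ak3, Atf6 and Ern1 were lower, 4 higher and 3 lower of 31 (edgeR quasi-likelihood test, adjusted p below 0.05 over all genes tested). Of all 14649 genes tested there, 17.9% were higher and 19.4% lower, so the members were not called more often than genes in general. In LPS+ tlr4f/f-lysM-cre against R, 15 members were higher and 5 lower, beside 30.5% and 31% of 14551 genes. The share of members was above that of all genes for higher calls and below it for lower calls, and this difference was not tested. All 4 genes higher in the first of these comparisons were among the 15 in the second, and 2 of the 3 lower genes (Eif2ak3, Atf6) were among the 5. No member was called in opposite directions, and 26 of 31 had the same sign. The 5 others were Xbp1, Dnajb9, Dnajc3, Ddit3 and Psat1. Shared calls and signs were not counted over all genes, so they cannot be read as particular to the members.

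A differentially expressed gene (DEG) is used here for a fold change above 2 with an adjusted p below 0.01. In Q against LPS- tlr4f/f the members had 4 DEGs, Ppp1r15a, Hspa5, Syvn1 and Eif2ak3, beside 17.1% of all genes, and with any 1 of the 6 libraries left out they had 1 to 3. In LPS+ tlr4f/f-lysM-cre against R they had 3, Herpud1, Ppp1r15a and Mthfd2, beside 21.8%. The spread differed strongly between these comparisons: the common biological coefficient of variation was 43.1% in the first and 8.88% in the second. Over the members, the median coefficient of variation within a group was 22.9% in LPS- tlr4f/f, 18.1% in Q, 6.01% in R and 4.82% in LPS+ tlr4f/f-lysM-cre. The number of calls in the 2 comparisons is therefore not a measure of how much changed. When all 12 libraries entered 1 fit, the calls in LPS+ tlr4f/f-lysM-cre against R went from 15 higher and 5 lower to 5 and 3. Those in Q against LPS- tlr4f/f went from 4 higher and 3 lower to 11 and 8. In that fit, 31.1% of 15792 genes were called in either direction in the former comparison and 53.0% in the latter. The 8 members that kept their call in the former were Eif2ak3, Atf6, Hspa5, Sdf2l1, Herpud1, Syvn1, Ppp1r15a and Mthfd2.

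**Figure D1:**
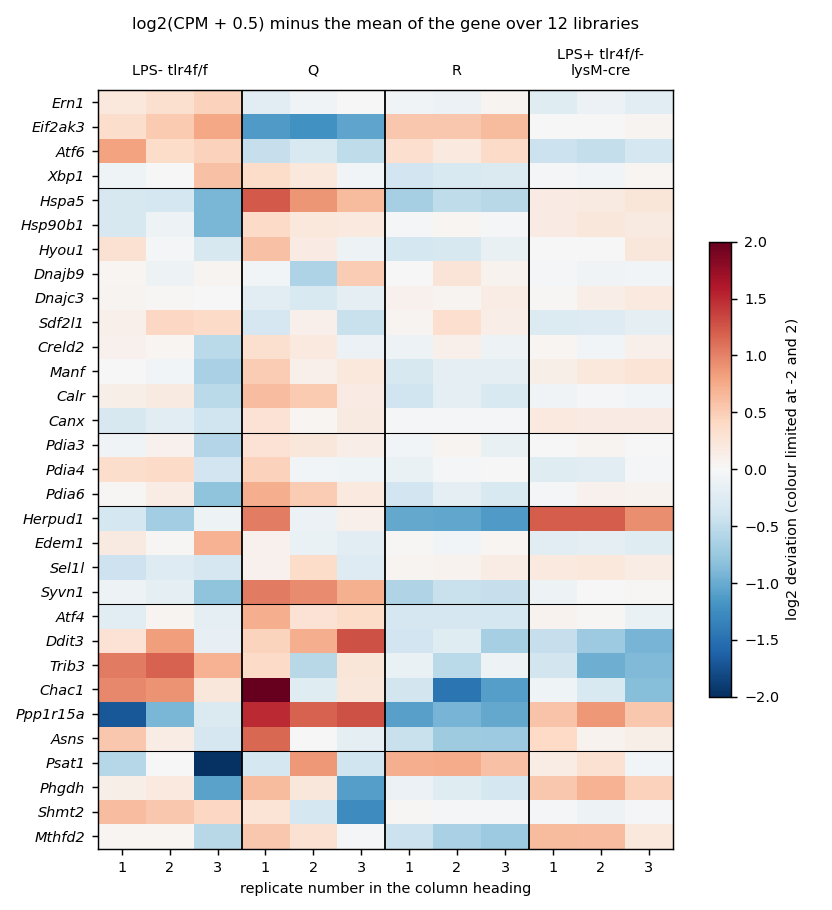
Heat map of the 31 genes (rows, grouped by role) in the 12 libraries (columns, by group and replicate number), with colour for log2(CPM + 0.5) minus the mean of the gene over the 12 libraries, limited at -2 and 2. Hspa5, Syvn1 and Ppp1r15a are red in all 3 libraries of Q, Herpud1 is red in all 3 of LPS+ tlr4f/f-lysM-cre, and Eif2ak3 is blue in Q.

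Among the sensors, the mRNA of Eif2ak3, which encodes the eIF2 alpha kinase PERK, fell most in Q against LPS- tlr4f/f. Eif2ak3 (mm10 chr6:70844515-70905245, plus strand) had 24.9, 28.02 and 33.5 CPM in LPS- tlr4f/f, 8.56, 8.10 and 9.11 CPM in Q, 28.5, 28.6 and 30.3 CPM in R, and 19.2, 19.6 and 20.2 CPM in LPS+ tlr4f/f-lysM-cre. Q lay below every other library, and LPS+ tlr4f/f-lysM-cre lay between Q and the rest without overlap. Its log2 fold change was -1.75 ± 0.18 (SE; 3.37-fold lower; edgeR adjusted p = 0.00116) in Q against LPS- tlr4f/f and -0.56 ± 0.07 (adjusted p = 1.11e-05) in LPS+ tlr4f/f-lysM-cre against R. The 2 falls differed from each other: the interaction was 1.18 ± 0.16 on the log2 scale (edgeR adjusted p = 0.00466).

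Atf6, whose product is the membrane-bound factor that the Golgi proteases release, also fell in both comparisons. Unlike Eif2ak3, Atf6 overlapped between Q and LPS+ tlr4f/f-lysM-cre. It had 204, 150 and 160 CPM in LPS- tlr4f/f and 84.1, 93.8 and 81.2 CPM in Q. In R it had 146, 133 and 151 CPM, against 85.9, 83.1 and 91.3 CPM in LPS+ tlr4f/f-lysM-cre. In both comparisons the groups did not overlap, and Atf6 fell by 1.00 ± 0.17 (adjusted p = 0.00542) in the first and by 0.72 ± 0.06 (adjusted p = 5.26e-07) in the second on the log2 scale. Ern1, the gene of IRE1, fell by 0.45 ± 0.14 in Q against LPS- tlr4f/f (edgeR adjusted p = 0.0467), a call lost in each of the 6 fits with 1 library left out, and had -0.14 ± 0.07 (adjusted p = 0.117) in LPS+ tlr4f/f-lysM-cre against R. Xbp1, the target of IRE1, had 118, 125 and 188 CPM in LPS- tlr4f/f, 162, 145 and 120 CPM in Q, 95.8, 102 and 103 CPM in R, and 124, 121 and 129 CPM in LPS+ tlr4f/f-lysM-cre. It was higher in LPS+ tlr4f/f-lysM-cre than in R by 0.33 ± 0.05 (edgeR adjusted p = 0.000118), while LPS- tlr4f/f and Q overlapped (-0.01 ± 0.22, adjusted p = 0.968).

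Splicing of Xbp1 cannot be read from these counts. The row of the spliced Xbp1 transcript held between 86.8% and 91.0% of the count of the unspliced row in the 12 libraries, and the 2 transcripts share nearly all of their sequence, so most reads could have been counted for both.

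The chaperone genes are described with the promoter element that is known to bind ATF6 together with NF-Y, the ER stress response element (ERSE: CCAAT, then 9 bases of any kind, then CCACG, searched on both strands). RefSeq start sites on GRCm38.p6 gave a window of 250 bases before to 50 after the start for 28 of the 31 members, in 29 windows; Atf6, Hyou1 and Manf had none. The exact ERSE stood in 39 of 32851 windows (0.1187%) and in those of 8 members: Hspa5, Hsp90b1, Dnajc3, Creld2, Calr, Canx, Pdia6 and Syvn1. All 8 were among the 15 chaperone, isomerase and degradation genes with a window, and 0 of the 10 genes of the ATF4 axis and serine metabolism and 0 of the 3 sensor genes held it. The members were chosen as known stress response genes, so the share among them is a description. The elements of the members that results turn on follow on the strand of the gene, with capitals for the ERSE (for Herpud1 the related ERSE-II, ATTGG, 1 base of any kind, CCACG) and lower case for the 15 bases on each side.
Hspa5, chr2:34772010-34772058, plus strand: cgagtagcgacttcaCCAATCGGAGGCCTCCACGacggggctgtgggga
Syvn1, chr19:6046517-6046565, plus strand: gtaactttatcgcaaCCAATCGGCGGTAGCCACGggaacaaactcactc
Calr, chr8:84847060-84847108, minus strand: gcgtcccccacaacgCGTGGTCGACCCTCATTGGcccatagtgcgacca
Canx, chr11:50325785-50325833, minus strand: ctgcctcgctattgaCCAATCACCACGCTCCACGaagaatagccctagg
Pdia6, chr12:17266476-17266524, plus strand: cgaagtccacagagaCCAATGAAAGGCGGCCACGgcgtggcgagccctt
Herpud1, chr8:94386362-94386402, plus strand: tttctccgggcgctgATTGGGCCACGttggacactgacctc
The ERSE of Hspa5 lay 65 to 47 bases before the RefSeq start site and that of Syvn1 44 to 26 bases before it. For Hspa5 this start is chr2:34772090. The gene span given below, from another annotation, starts at chr2:34771970 and so takes in the element. In Calr the element is read on the other strand, so the capitals show CGTGG first. Hsp90b1 held 2 copies, 212 to 194 and 107 to 89 bases before its start. ERSE-II was rarer, in 12 of 32851 windows (0.03653%), and Herpud1, where it lay 52 to 42 bases before the start, was the only member with it. The core of the XBP1 element, TGACGTG, stood in 2.012% of all windows and in Hspa5 alone among the members.

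Hspa5, which encodes BiP (mm10 chr2:34771970-34777547, plus strand), was the chaperone gene with the largest rise. Hspa5 had 688, 676 and 458 CPM in LPS- tlr4f/f, 2013, 1587 and 1331 CPM in Q, 544, 608 and 590 CPM in R, and 971, 976 and 1018 CPM in LPS+ tlr4f/f-lysM-cre. Each library of Q and of LPS+ tlr4f/f-lysM-cre lay above all of LPS- tlr4f/f and R. The log2 fold change was 1.43 ± 0.27 (2.69-fold; edgeR adjusted p = 0.00821) in Q against LPS- tlr4f/f and 0.78 ± 0.06 (1.71-fold; adjusted p = 1.32e-07) in LPS+ tlr4f/f-lysM-cre against R. The difference between the 2 rises, -0.67 ± 0.26, did not pass the test (edgeR adjusted p = 0.149). Per kb of transcript, Hspa5 and Calr stood highest of the members in each group: 232 and 438 CPM per kb in LPS- tlr4f/f, and 628 and 616 CPM per kb in Q.

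The other chaperone and isomerase genes gave smaller changes. Hsp90b1, the gene of GRP94, had 456, 530 and 303 CPM in LPS- tlr4f/f, 742, 659 and 656 CPM in Q, 558, 585 and 554 CPM in R, and 639, 669 and 649 CPM in LPS+ tlr4f/f-lysM-cre. R and LPS+ tlr4f/f-lysM-cre did not overlap, and Hsp90b1 was higher in the latter by 0.21 ± 0.05 (edgeR adjusted p = 0.00287). Q and LPS- tlr4f/f did not overlap either, with 0.66 ± 0.25 (adjusted p = 0.0769). Calr, a lectin chaperone gene, had 956, 992 and 607 CPM in LPS- tlr4f/f, 1343, 1259 and 989 CPM in Q, 666, 771 and 715 CPM in R, and 834, 859 and 846 CPM in LPS+ tlr4f/f-lysM-cre. Library 3 of LPS- tlr4f/f had the lowest Hspa5, Hsp90b1, Calr, Manf and Pdia6 of its group.

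Against R, LPS+ tlr4f/f-lysM-cre had 6 chaperone genes higher, of which Manf (0.45 ± 0.06), Hyou1 (0.36 ± 0.08), Calr (0.25 ± 0.06) and Canx (0.21 ± 0.05) were called with edgeR adjusted p of 0.00305 or less. Manf encodes a secreted ER protein, Hyou1 a large HSP70 relative that serves BiP, and Canx the membrane lectin chaperone calnexin. Sdf2l1, a partner of the BiP co-chaperone ERdj3, fell by 0.42 ± 0.07 (edgeR adjusted p = 0.000230), with 62.5, 76.1 and 66.4 CPM in R and 49.7, 50.2 and 52.5 CPM in LPS+ tlr4f/f-lysM-cre. It had -0.53 ± 0.18 (adjusted p = 0.06) in Q against LPS- tlr4f/f. Dnajb9 and Dnajc3, which encode the ERdj4 and P58IPK co-chaperones, and Creld2 were not called in either comparison. Of the isomerase genes, which encode enzymes that form and shuffle disulfide bonds, Pdia6 was higher in LPS+ tlr4f/f-lysM-cre than in R (0.34 ± 0.06, edgeR adjusted p = 0.000374), Pdia3 had 0.08 ± 0.06 and Pdia4 had -0.10 ± 0.07. Counts of Pdia3, Pdia6, Hsp90b1, Manf and Dnajb9 are less certain, since their exons overlap exons of genes on the opposite strand and the library kit is not described as keeping strand. Exons of Manf (with Rbm15b), Hsp90b1 (with Gm15344 and Gm25745) and Pdia4 (with Mir704) also overlap exons on the same strand.

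**Figure D2:**
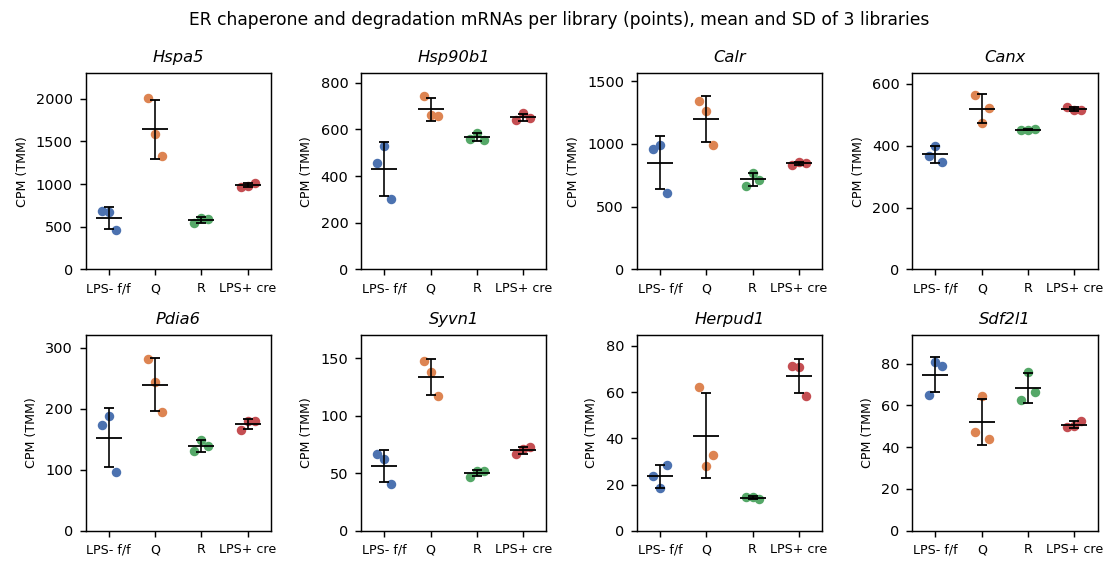
CPM (vertical axes, each starting at 0) of 8 chaperone, isomerase and degradation genes in the 12 libraries (points), with the mean and SD of each group of 3; LPS- f/f is LPS- tlr4f/f and LPS+ cre is LPS+ tlr4f/f-lysM-cre. The 3 Q libraries of Hspa5, 1331 to 2013 CPM, lie above all others, while for Herpud1 the highest group is LPS+ tlr4f/f-lysM-cre, with 58.5 to 71.2 CPM.

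In ER-associated degradation, Herpud1 and Syvn1 rose and Edem1 fell. Herpud1 (mm10 chr8:94386438-94395377, plus strand), whose product binds the retrotranslocation complex, had 23.8, 18.6 and 28.3 CPM in LPS- tlr4f/f and 62.4, 28.2 and 32.9 CPM in Q. In R it had 14.7, 14.6 and 13.7 CPM, against 71.2, 71.0 and 58.5 CPM in LPS+ tlr4f/f-lysM-cre. Library 3 of LPS- tlr4f/f and library 2 of Q overlapped, while LPS+ tlr4f/f-lysM-cre was far from R. The log2 fold change was 2.23 ± 0.08 (4.70-fold, the largest of any member there; edgeR adjusted p = 2.34e-10) in LPS+ tlr4f/f-lysM-cre against R and 0.80 ± 0.34 (adjusted p = 0.106) in Q against LPS- tlr4f/f. The difference between them was 1.42 ± 0.37 (edgeR adjusted p = 0.0446). That call was lost in 10 of the 12 fits with 1 library left out, where the difference lay between 1.21 and 1.85.

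Syvn1 (mm10 chr19:6046576-6053712, plus strand) encodes HRD1, the ubiquitin ligase of the same complex. It had 66.7, 62.6 and 40.6 CPM in LPS- tlr4f/f, 147, 138 and 117 CPM in Q, 46.9, 52.3 and 51.8 CPM in R, and 66.5, 71.0 and 72.7 CPM in LPS+ tlr4f/f-lysM-cre. Neither pair of groups overlapped, and Syvn1 was higher by 1.23 ± 0.22 (2.35-fold; edgeR adjusted p = 0.00716) and by 0.49 ± 0.06 (adjusted p = 1.80e-05). Sel1l, the adaptor of HRD1, was not called in either comparison. Edem1, a lectin that hands glycoproteins to degradation, fell by 0.21 ± 0.05 in LPS+ tlr4f/f-lysM-cre against R (edgeR adjusted p = 0.00317) and had -0.42 ± 0.22 (adjusted p = 0.171) in Q against LPS- tlr4f/f. Exons of Syvn1 overlap those of Mrpl49 on the opposite strand, so part of its count may belong to Mrpl49.

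Of the 15 chaperone, isomerase and degradation genes with a promoter window, the 8 with an exact ERSE had a median log2 fold change of 0.56 (range -0.28 to 1.43, 2 called higher by edgeR, 4 by DESeq2 and 4 at an unadjusted p below 0.05) in Q against LPS- tlr4f/f, where 17.9% of all genes were called higher by edgeR. The 7 without had 0.02 (range -0.53 to 0.80), with 0 called by edgeR, 1 called higher by DESeq2 and 1 lower at an unadjusted p below 0.05. In either direction, DESeq2 called 44.2% of all genes there, and 7011 of 14649 had an unadjusted p below 0.05 with edgeR. In LPS+ tlr4f/f-lysM-cre against R the median with an ERSE was 0.23 (range 0.03 to 0.78, 6 of 8 higher). Without an ERSE it was -0.10 (range -0.42 to 2.23, 1 of 7 higher, 2 lower). Of all genes, 30.5% were higher and 31% lower there. The 2.23 is that of Herpud1, which holds the related ERSE-II. These are descriptions of a few genes, with no test.

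**Figure D3:**
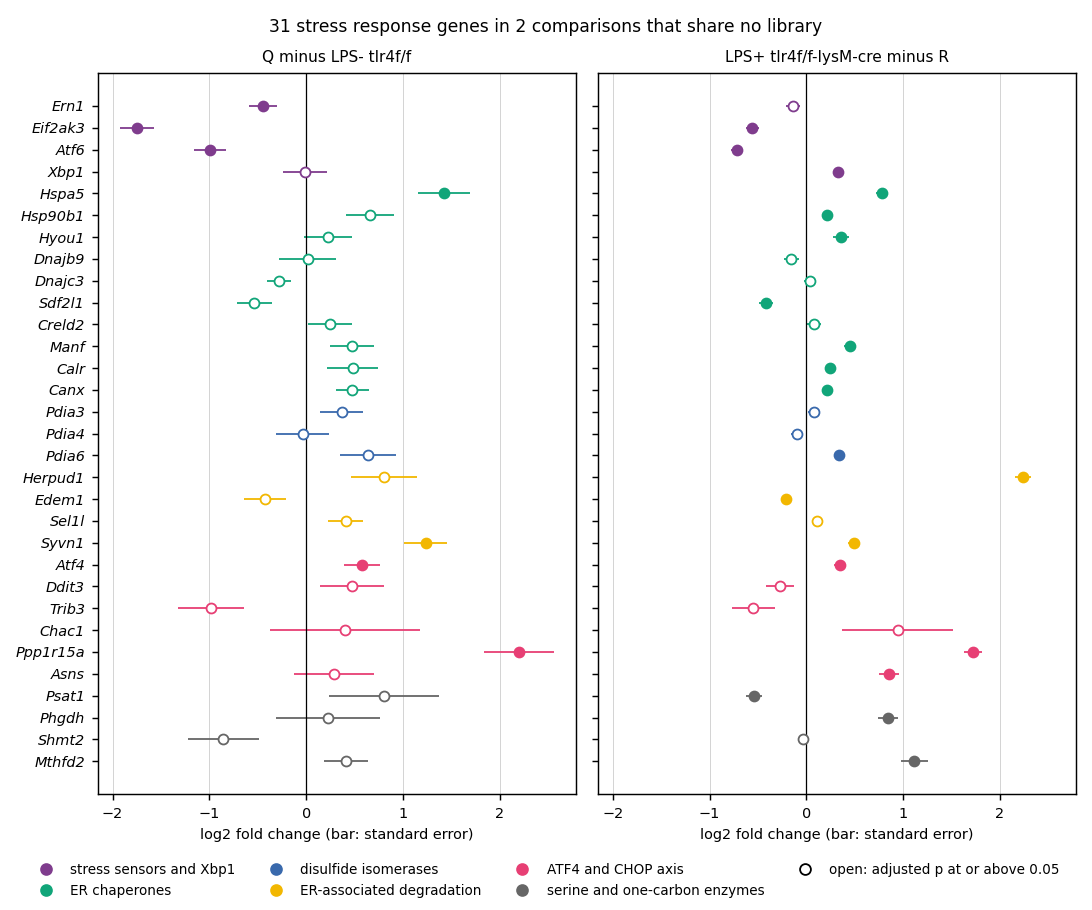
Log2 fold change with its standard error (horizontal axis) of the 31 genes (rows, coloured by role) in Q minus LPS- tlr4f/f (left) and LPS+ tlr4f/f-lysM-cre minus R (right), on one scale; filled points passed an adjusted p of 0.05 with edgeR. Eif2ak3 and Atf6 lie left of 0 and Hspa5, Syvn1, Atf4 and Ppp1r15a right of 0 as filled points in both panels, and Herpud1 stands at 2.23 on the right.

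On the ATF4 and CHOP axis, the gene with the largest change was Ppp1r15a, which encodes GADD34, the phosphatase subunit that removes phosphate from eIF2 alpha. Ppp1r15a (mm10 chr7:45522916-45526268, minus strand) had 8.68, 15.3 and 23.8 CPM in LPS- tlr4f/f, 82.9, 66.5 and 70.8 CPM in Q, 13.5, 15.1 and 14.1 CPM in R, and 43.5, 53.7 and 42.5 CPM in LPS+ tlr4f/f-lysM-cre. The lowest library of Q and of LPS+ tlr4f/f-lysM-cre lay above the highest of LPS- tlr4f/f and R. The log2 fold change was 2.20 ± 0.36 (4.60-fold; edgeR adjusted p = 0.00527) in Q against LPS- tlr4f/f and 1.72 ± 0.09 (3.29-fold; adjusted p = 1.45e-08) in LPS+ tlr4f/f-lysM-cre against R. Exons of Eif2ak3 overlap those of Gm43292, and those of Ppp1r15a overlap those of Tulp2, on the opposite strand. Its window was the only one of a member with the cyclic AMP response element TGACGTCA, 12 to 5 bases before the start, which 1.79% of all windows hold.

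Atf4 itself, whose product is regulated mainly through translation, had 160, 192 and 162 CPM in LPS- tlr4f/f, 306, 226 and 238 CPM in Q, 146, 147 and 144 CPM in R, and 194, 188 and 169 CPM in LPS+ tlr4f/f-lysM-cre. It was higher by 0.58 ± 0.18 (edgeR adjusted p = 0.0482) in Q against LPS- tlr4f/f, a call also lost in each of these 6 fits, and by 0.34 ± 0.06 (adjusted p = 0.000196) in LPS+ tlr4f/f-lysM-cre against R. Ddit3, the gene of the pro-apoptotic factor CHOP, was not called. It had 26.0, 38.2 and 18.9 CPM in LPS- tlr4f/f, 29.0, 35.4 and 52.0 CPM in Q, 16.1, 17.9 and 13.1 CPM in R, and 15.2, 12.5 and 10.8 CPM in LPS+ tlr4f/f-lysM-cre. The groups overlapped in both comparisons, with 0.48 ± 0.33 (edgeR adjusted p = 0.295) and -0.27 ± 0.14 (adjusted p = 0.122).

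Trib3 and Chac1, which CHOP and ATF4 are known to drive, were low in all groups. Trib3, a pseudokinase gene, had 9.13, 10.2 and 7.14 CPM in LPS- tlr4f/f and 5.64, 2.71 and 5.04 CPM in Q, with -0.98 ± 0.34 (edgeR adjusted p = 0.062), and between 1.89 and 3.89 CPM in the other 6 libraries, with -0.55 ± 0.22 (adjusted p = 0.0513) for LPS+ tlr4f/f-lysM-cre against R. Chac1, a glutathione-degrading enzyme gene, ranged from 0.129 to 6.98 CPM and was not called. Asns, the gene of asparagine synthetase, had 23.3, 19.3 and 19.1 CPM in R and 42.4, 33.5 and 34.6 CPM in LPS+ tlr4f/f-lysM-cre, a rise of 0.85 ± 0.11 (edgeR adjusted p = 3.92e-05). In LPS- tlr4f/f and Q its values overlapped, between 25.3 and 71.8 CPM.

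The 4 serine and one-carbon enzymes did not move as one. Mthfd2, the mitochondrial folate dehydrogenase gene, had 59.3, 50.8 and 47.8 CPM in R and 125, 123 and 92.0 CPM in LPS+ tlr4f/f-lysM-cre, a rise of 1.11 ± 0.14 (2.16-fold; edgeR adjusted p = 0.000385). Phgdh, the first enzyme of serine synthesis, rose by 0.84 ± 0.10 (adjusted p = 1.18e-05) between the same groups. Psat1, the second enzyme of the same pathway, fell by 0.54 ± 0.09 (edgeR adjusted p = 0.000230), with 85.6, 87.0 and 77.7 CPM in R and 57.0, 64.0 and 49.9 CPM in LPS+ tlr4f/f-lysM-cre. Shmt2, the mitochondrial serine hydroxymethyltransferase gene, had between 43.7 and 45.8 CPM in R and between 42.0 and 43.9 CPM in LPS+ tlr4f/f-lysM-cre, which overlapped. In Q the same enzymes varied widely between libraries: Shmt2 had 54.6, 35.0 and 18.5 CPM and Psat1 40.4, 94.5 and 39.0 CPM. Of the 4, 0 were called in Q against LPS- tlr4f/f by edgeR, 0 by DESeq2 and 0 by limma voom, and 0 had an unadjusted p below 0.05. Exons of Shmt2 overlap those of Ndufa4l2 on the opposite strand.

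**Figure D4:**
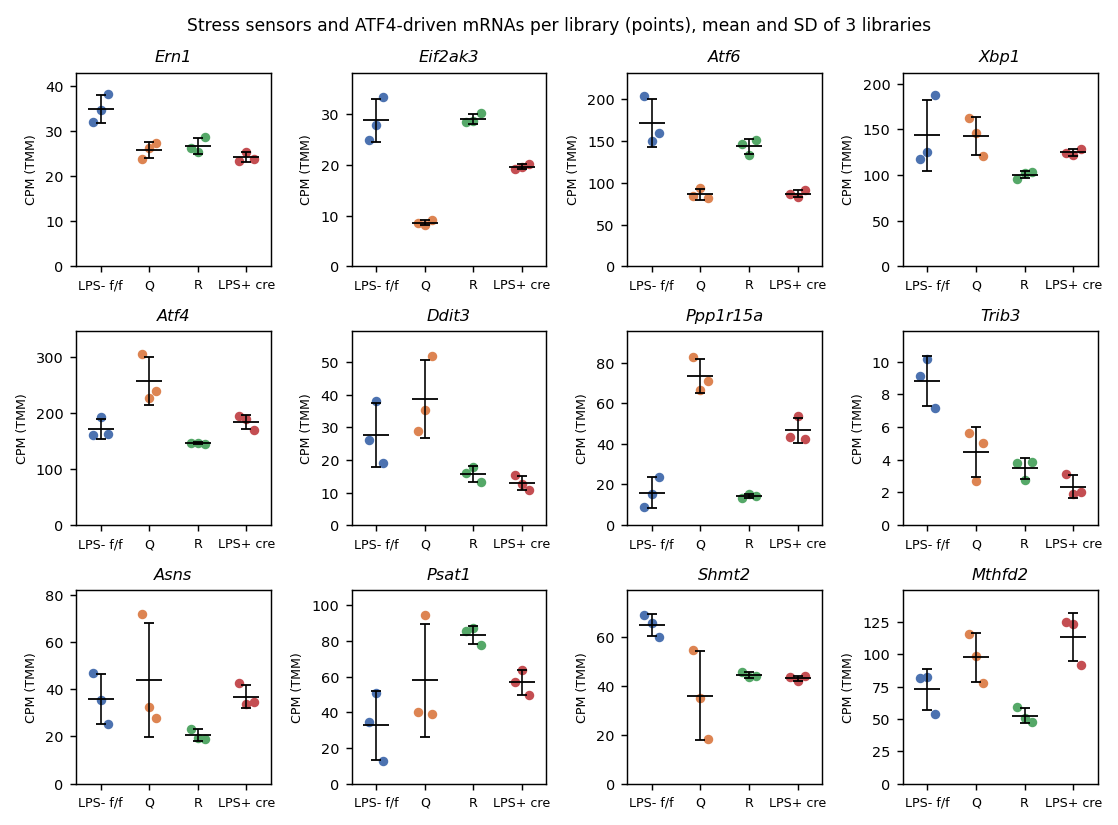
CPM (vertical axes, each starting at 0) of the 4 sensor genes and 8 genes of the ATF4, CHOP and serine branches in the 12 libraries (points), with the mean and SD of each group of 3; LPS- f/f is LPS- tlr4f/f and LPS+ cre is LPS+ tlr4f/f-lysM-cre. Eif2ak3 has its lowest values in Q, 8.10 to 9.11 CPM, Ppp1r15a its highest, 66.5 to 82.9 CPM, and Ddit3 is lower in R and LPS+ tlr4f/f-lysM-cre, 10.8 to 17.9 CPM, than in the other 6 libraries, 18.9 to 52.0 CPM.

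R against LPS- tlr4f/f gave no call among the 31 members with edgeR, beside 0.605% of 14712 genes higher, 0.673% lower and 0% DEGs. At an unadjusted p below 0.05 it had 3 members higher and 8 lower, beside 3626 of 14712 genes, and the lowest adjusted p was 0.0510. DESeq2 called 3 higher and 7 lower, beside 15.6% of all genes in either direction. Limma voom with quality weights called 1 higher and 6 lower, beside 8.55%. Without library 3 of LPS- tlr4f/f, edgeR called 2 higher and 10 lower, beside 14.3%. Without library 2 it called 1 higher and 2 lower, beside 6.59%. The 6 genes of the ATF4 and CHOP axis all had a negative log2 fold change, and those nearest to a call were Trib3 (-1.33 ± 0.22, edgeR adjusted p = 0.0512), Chac1 (-2.45 ± 0.68, adjusted p = 0.103) and Asns (-0.79 ± 0.23, adjusted p = 0.113). Hspa5 had -0.05 ± 0.18. As headed, these values are the LPS response of tlr4f/f, and with the headings exchanged they are the effect of genotype without LPS.

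In LPS+ tlr4f/f-lysM-cre against Q, 2 members were higher and 5 lower, beside 12.5% and 14.2% of 14245 genes, and 2 were DEGs, beside 6.09%. Eif2ak3 was 2.31-fold higher (1.20 ± 0.13, edgeR adjusted p = 0.00229), and Dnajc3, the inhibitor of eIF2 alpha kinases, was higher by 0.37 ± 0.10 (adjusted p = 0.0387). Ddit3 was 2.997-fold lower (-1.58 ± 0.25, edgeR adjusted p = 0.00747), with every library of LPS+ tlr4f/f-lysM-cre below every library of Q. Syvn1 (-0.93 ± 0.12, adjusted p = 0.00350), Hspa5 (-0.72 ± 0.17, adjusted p = 0.0242), Ppp1r15a (-0.65 ± 0.15, adjusted p = 0.0202) and Calr (-0.49 ± 0.14, adjusted p = 0.0451) were lower as well by edgeR. Eif2ak3, Syvn1 and Ddit3 kept their calls with each library left out and under each alternative fit, and Hspa5, Ppp1r15a, Calr and Dnajc3 did not. Without any 1 library of LPS+ tlr4f/f-lysM-cre there were 2 or 3 members lower and 0 DEGs, without library 2 of Q there was 1 DEG, and without library 3 of Q 8 were lower. As headed, this is the LPS response of tlr4f/f-lysM-cre, and exchanged the effect of genotype under LPS.

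**Figure D5:**
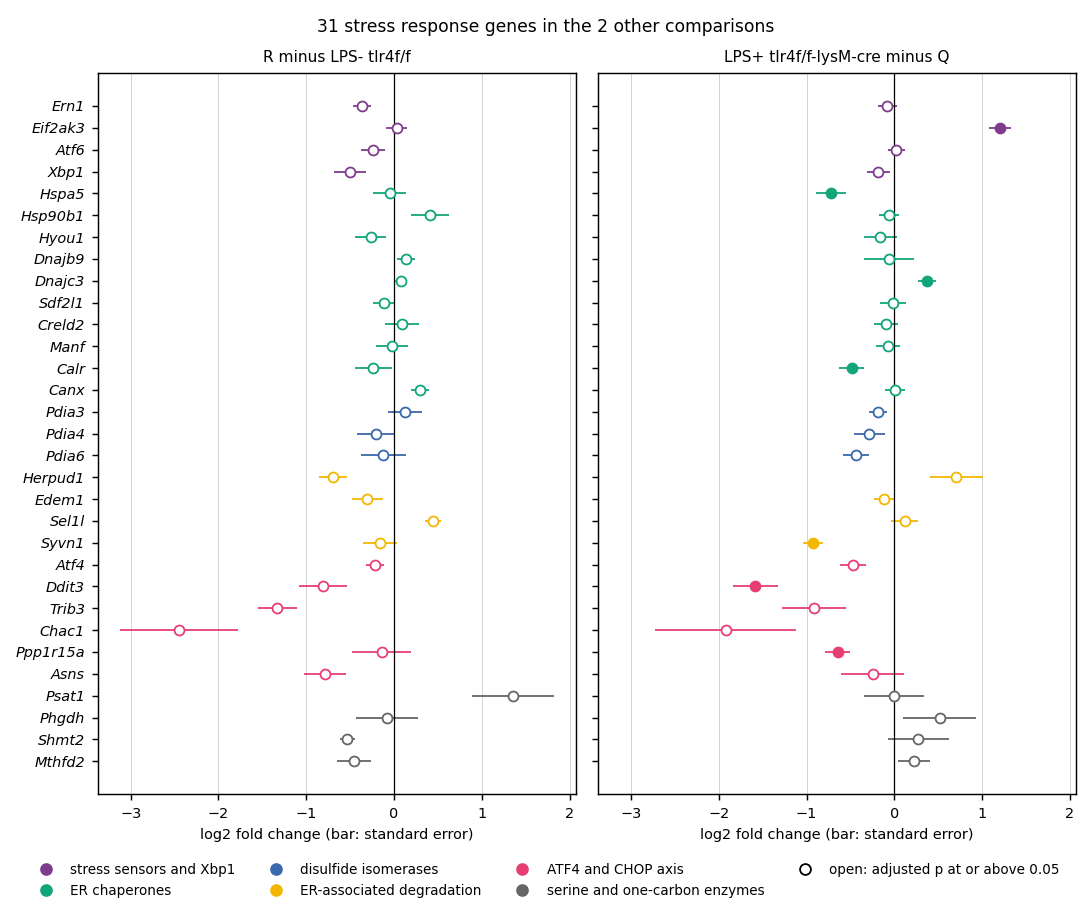
Log2 fold change with its standard error (horizontal axis) of the 31 genes (rows, coloured by role) in R minus LPS- tlr4f/f (left) and LPS+ tlr4f/f-lysM-cre minus Q (right), on one scale; filled points passed an adjusted p of 0.05 with edgeR. The left panel has no filled point, and on the right Eif2ak3 stands at 1.20 and Ddit3 at -1.58.

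The interaction, fitted over 12 libraries, called 2 members higher and 0 lower with edgeR, Eif2ak3 and Herpud1, beside 4.13% of 15792 genes higher and 2.86% lower, and 1 DEG (Eif2ak3) beside 0.994%. At an unadjusted p below 0.05 it had 4 members higher and 2 lower, beside 3692 of 15792 genes. DESeq2 called 3 members lower and limma voom 1, where they called 15.7% and 7.18% of all genes in either direction. The 17 chaperone, isomerase and degradation genes had a median interaction of -0.19 and the 10 genes of the ATF4 axis and serine metabolism 0.48, beside 0.05 over all genes.

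The 2 branches are set side by side by their medians. In Q against LPS- tlr4f/f, the 17 ER genes and the 10 ATF4-driven genes both had a median log2 fold change of 0.41, beside -0.08 over all genes. In each branch 2 were called, all of them higher, beside 17.9% of all genes higher and 19.4% lower. In LPS+ tlr4f/f-lysM-cre against R the medians were 0.21 (9 higher, 2 lower) and 0.59 (5 higher, 1 lower), beside -0.02 over all genes. Of all genes, 30.5% were higher and 31% lower there. R against LPS- tlr4f/f gave -0.05 and -0.49, beside -0.03 over all genes. LPS+ tlr4f/f-lysM-cre against Q gave -0.10 and -0.36, beside 0.03 over all genes.

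There were 108 other genes of the same pathways, taken from general knowledge. In Q against LPS- tlr4f/f, 18 were higher and 8 lower of 103 tested, beside 17.9% and 19.4% of all genes. In LPS+ tlr4f/f-lysM-cre against R, 50 were higher and 19 lower of 102 tested, beside 30.5% and 31% of all genes. The cystine transporter gene Slc7a11, an ATF4 target, had the largest rise of its list in both, 4.75 ± 0.72 and 5.16 ± 0.08 on the log2 scale. The mitochondrial gene Pck2, another ATF4 target, had the largest fall, -2.40 and -1.31. Of the 12 aminoacyl-tRNA synthetase genes, 9 were higher in LPS+ tlr4f/f-lysM-cre against R, led by Wars at 1.11, which is also known as an interferon-induced gene. In Q against LPS- tlr4f/f, Wars (1.52) was the only one called.

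In each list, the called genes with the largest changes are named. Among other sensors and regulators, Ppp1r15b, the constitutive partner of the eIF2 alpha phosphatase, was the gene with the largest rise in Q against LPS- tlr4f/f (2.41), and the kinase gene Eif2ak2, which is interferon-induced, in LPS+ tlr4f/f-lysM-cre against R (1.85). Eif2ak4, the amino acid sensor GCN2, had the largest fall in the first (-1.70), and Wfs1, an ER calcium regulator, in the second (-1.04). Of 12 cytosolic heat shock genes, counted apart from these lists, 4 were higher in the first, beside 17.9% of all genes. In the second 7 were higher and 2 lower, beside 30.5% and 31% of all genes. Hspa1a rose by 3.45 in the first and Hspa1b by 1.85 in the second, near-identical copies whose counts are uncertain, while Bag3 fell by 0.54 in the second. Of 17 other ER folding genes, Dnajc1 led in the first (1.45) and Dnajc10 in the second (0.92), with Ero1lb lowest there (-0.47). Of the other degradation genes, Rnf139 rose most in both (1.23 and 0.78), Ube2g2 fell in the first (-0.38) and Sel1l3 in the second (-1.88). Of the translocation genes, Srpr led in both (1.02 and 0.69), and Sec11c fell in the second (-0.31). Of the serine and one-carbon list, Mthfd1 fell in both (-1.64 and -0.53), and Aldh1l2, the highest in the second, had at most 17 counts in a library there.

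In R against LPS- tlr4f/f, 1 of these other pathway genes was called, Nupr1 (-3.10). The comparison of LPS+ tlr4f/f-lysM-cre with Q had 6 higher and 14 lower of 103 tested, beside 12.5% and 14.2% of all genes. The hypoxia and stress gene Ddit4, an ATF4 target, had the largest fall there (-4.23). Among the called genes of other lists, the largest falls were those of the factor gene Creb3l1 (-2.005), the heat shock gene Dnajb1 (-1.20), Dnajc1 (-0.79) and Os9 (-0.78). In the 5 lists with a gene called higher there, the called gene with the largest rise was Eif2ak4 (0.96), Dnajc10 (0.91), Sec11c (0.73), Gpt2 (0.61) and Edem3 (0.45).

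Marker sums of cell types differed between the groups. The 10 macrophage markers summed to between 14646 and 30463 CPM in LPS- tlr4f/f and between 5441 and 5740 CPM in R, with 19798 to 23284 CPM in Q and 9383 to 9684 CPM in LPS+ tlr4f/f-lysM-cre, a sum that includes Lyz2. With RLE factors, the mean of Lyz2 alone was 12844 CPM in LPS- tlr4f/f and 7877 CPM in Q. It was 11.7 CPM in R and 61.6 CPM in LPS+ tlr4f/f-lysM-cre, so the sums do not rank the groups by the other macrophage markers. The 8 fibroblast and stroma markers (Col1a1, Col1a2, Col3a1, Dcn, Lum, Pdgfra, Sparc, Postn) summed to 771, 71.0 and 12.8 CPM in LPS- tlr4f/f and 1082, 157 and 1725 CPM in Q, against 25.6 to 33.3 CPM in R and 37.3 to 55.2 CPM in LPS+ tlr4f/f-lysM-cre. Of these 8, 7 were lower in LPS+ tlr4f/f-lysM-cre than in Q, beside 14.2% of all genes. In the same group 5 were higher than in R, beside 30.5% of all genes. The 8 neutrophil markers summed to between 14.9 and 192 CPM in Q and to at most 13.7 CPM elsewhere, and those of lymphocytes, mast cells, dendritic cells and erythroid cells to at most 6.35 CPM in any library. The part of these cells in the member values was not tested. In bulk RNA, fewer cells of a type and less RNA per cell cannot be told apart.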

How the data were processed

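PolyA RNA of 12 BMDM samples was sequenced as paired reads. The authors trimmed reads with Trimmomatic 0.36, aligned them with HISAT2 (mm10) and obtained counts with HTSeq. The deposited values are raw counts for 115140 transcript rows without normalization. Rows of one gene share reads, so the row with the highest total was kept for each of 43453 genes. Groups follow the deposited headings, and both readings of 2 headings are given.

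In R 4.3.3, edgeR 4.0.16 (filterByExpr, TMM, robust quasi-likelihood test, Benjamini-Hochberg over all genes tested) compared the 6 libraries of each pair of groups, and the interaction used all 12 libraries. SE is the log2 fold change divided by the root of F. DEGs follow the thresholds of the study, a fold above 2 and an adjusted p below 0.01. Alternatives were DESeq2 1.42.0, limma 3.58.1 voom with quality weights, RLE factors, no filter, one shared fit of 12 libraries, a minimum of 10 counts per library, a replicate block, sums over rows, each library left out and exchanged headings. The fits were tested on simulated data.

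The 31 members and all gene lists were chosen with earlier results of these data known. All members are named. Of each list of other pathway genes, the called gene with the largest rise and fall in a comparison may be named where each library of the higher group had at least 10 counts. No molecular identifiers are described. Promoter windows are from RefSeq on GRCm38.p6 and gene positions from the GENCODE annotation of mm10.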

Additional observations from a re-analysis of the deposited data

Results flagged for a closer look

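For the 7 genes given here, the effect of LPS differed between the genotypes, or the effect of genotype with and without LPS, by the interaction term of edgeR over 12 libraries. Among the members these were Eif2ak3, with an interaction of 1.18 ± 0.16 on the log2 scale (edgeR adjusted p = 0.00466), and Herpud1, with 1.42 ± 0.37 (edgeR adjusted p = 0.0446). Eif2ak3 fell less, and the log2 fold change of Herpud1 was larger, in LPS+ tlr4f/f-lysM-cre against R than in Q against LPS- tlr4f/f. The interaction is the same with the 2 headings exchanged. Among the other pathway genes, the co-chaperone genes Dnajc1 and Dnaja1 had -0.95 (edgeR adjusted p = 0.00444) and -1.17 (adjusted p = 0.00843), and Ppp1r15b had -1.12 (edgeR adjusted p = 0.0155). Eif2ak4 had 0.83 (edgeR adjusted p = 0.0388), and Aldh18a1, an enzyme gene of proline synthesis, had 1.16 (adjusted p = 0.0331). The neutrophil markers, 14.9 to 192 CPM in Q and at most 13.7 CPM elsewhere, and the stroma markers, highest in libraries 1 and 3 of Q, differ over the same libraries, and their part in these values was not tested.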

How the results depend on the processing

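Calls of Eif2ak3, Atf6, Hspa5, Syvn1 and Ppp1r15a in Q against LPS- tlr4f/f held under every alternative fit and with each library left out. So did 8 of 20 calls in LPS+ tlr4f/f-lysM-cre against R and 3 of 7 in LPS+ tlr4f/f-lysM-cre against Q. Where counts of members moved by over 1.5 times, they were as follows, and the cause was not tested. In R against LPS- tlr4f/f, where edgeR gave 0 in each direction, DESeq2 gave 3 higher, 7 lower and 2 DEGs, limma voom 1 higher and 6 lower, the 10-count minimum 2 lower, and no filter or the fit of 12 libraries 1 lower each. Of all genes there, DESeq2 called 15.6%, voom 8.55%, the 10-count minimum 2.13%, no filter 1.18% and the fit of 12 libraries 4.64%. For LPS+ tlr4f/f-lysM-cre against Q, DESeq2 gave 9 lower, voom, RLE factors and no filter 1 higher each, and summed rows 1 DEG. DESeq2 called 34.5% of all genes there, voom 27.0%, RLE factors 26.7% and no filter 13.5%. In Q against LPS- tlr4f/f, DESeq2 gave 7 higher and the fit of 12 libraries 11 higher and 8 lower, and the latter gave 5 higher and 3 lower in LPS+ tlr4f/f-lysM-cre against R. DESeq2 called 44.2% of all genes in the former comparison. The fit of 12 libraries called 53.0% there and 31.1% in the latter comparison. For the interaction, DESeq2 gave 3 lower and 2 DEGs, voom and the 10-count minimum 1 lower each, and RLE factors, no filter and summed rows 1 higher each. Of all genes there, DESeq2 called 15.7%, voom 7.18%, the 10-count minimum 11.1%, RLE factors 6.74%, no filter 2.72% and summed rows 5.66%. An exchange of headings leaves the libraries of Q and R and their calls unchanged, and only the names of the comparisons change. The comparison named LPS+ tlr4f/f against LPS- tlr4f/f then took 4 higher, 3 lower and 4 DEGs. That named LPS- tlr4f/f-lysM-cre against LPS- tlr4f/f took 0, 0 and 0. LPS+ tlr4f/f-lysM-cre against LPS- tlr4f/f-lysM-cre, by name, took 15 higher. LPS+ tlr4f/f-lysM-cre against LPS+ tlr4f/f, by name, took 2 higher. The shares of all genes move with the libraries.

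With each library left out in turn, R against LPS- tlr4f/f had 0 to 2 members higher, 0 to 10 lower and 0 DEGs, with 2 and 10 without library 3 of LPS- tlr4f/f and 1 and 2 without library 2. Of all genes, 14.3% were called without library 3 and 6.59% without library 2. LPS+ tlr4f/f-lysM-cre against Q had 1 to 3 higher, 2 to 8 lower and 0 to 3 DEGs, with 8 lower without library 3 of Q, 1 DEG without library 2 of Q, and 2 or 3 lower and 0 DEGs without any 1 library of LPS+ tlr4f/f-lysM-cre. Q against LPS- tlr4f/f had 3 higher, 2 to 3 lower and 1 to 3 DEGs, beside 25.3% to 29.6% of all genes called. LPS+ tlr4f/f-lysM-cre against R had 15 to 16 higher, 5 to 7 lower and 3 DEGs, beside 55.1% to 59.1% of all genes called. The interaction had 1 to 3 higher, 0 lower and 0 to 2 DEGs, beside 2.24% to 9.45% of all genes called. Psat1 in LPS+ tlr4f/f-lysM-cre against Q ranged from -0.24 to 0.53 (log2), and was called higher (0.53, edgeR adjusted p = 0.0316) without library 2 of Q.

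The replicate numbers were not taken as pairs in the main fits. Of 18 pairs of libraries with the same number, 5 had a correlation of deviations above 0.1 (range -0.0374 to 0.472). The 4 libraries numbered 2 each correlated best with their own number in every other group. Between LPS- tlr4f/f and Q, the correlation was 0.472 for number 1 and 0.340 for number 2. Whether libraries of one number share an origin was not tested. With the number as a block, LPS+ tlr4f/f-lysM-cre against Q had 1 member higher, 2 lower and 0 DEGs, beside 17.2% of all genes called. The other counts moved by 1.5 times or less.

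Group means of the members lay between 0.980 and 1.04 times those reported with RLE factors, and between 0.291 and 1.45 times with transcript rows summed. Summing raises the library totals, from 48381522 to 170332264 counts in library 1 of LPS- tlr4f/f. Genes with a single row, such as Ern1, therefore have a lower CPM with the same counts. The spread within LPS- tlr4f/f and Q limits what their comparison can show. No source used here settles the 2 headings.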
